A study of Mus musculus with 6 samples.

Results

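The genes described here are 3 subunits of the hypoxia-inducible factors (Hif1a, Epas1 and Arnt), 2 oxygen sensors (Egln1 and Egln3) and 5 targets of these factors (Vegfa, Adm, Ddit4, Ndrg1 and Bnip3), named by symbol and followed in mouse cumulus cells, the somatic cells around the oocyte. All probe sets that the platform annotation gives to one of these 10 genes and to no other gene were taken, which made 26 of 34958 such probe sets, and each gene was represented by its probe set with the highest mean over all samples, 10 of 18194 genes. The hCG-6h group held 3 samples from wild-type females that had 46 h of equine chorionic gonadotropin (eCG, 5 IU, given at 21 days of age to make follicles grow) and then 6 h of human chorionic gonadotropin (hCG, 5 IU, the ovulatory stimulus). The hCG-0h group held 3 samples from wild-type females given the same eCG and no hCG. The labels of every sample give an age of 23 days. Cumulus cells of 50 cumulus-oocyte complexes, handled in medium with 5 µM milrinone, which keeps oocytes from maturing, made up a sample, and each sample had 1 array. For samples 2 and 3 of the hCG-6h group the description fields read 7 h and 8 h, while titles and source names read 6 h, and the titles were followed. The design holds no later samples without hCG, so hCG and elapsed time cannot be told apart. Whether the samples of a group stem from different animals is not stated, and the p-values then measure only the spread between these samples, which may be technical.

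A hypoxia-inducible factor (HIF) is a pair of proteins, an oxygen-regulated alpha subunit (Hif1a or Epas1) and the stable beta subunit Arnt. With oxygen at hand, prolyl hydroxylases of the Egln family mark the alpha subunit for breakdown, and when oxygen falls the pair builds up and binds the hypoxia response element of its targets, Egln3 itself among them. This control acts on the protein, which these arrays do not measure. In the mouse ovary, HIF activity is known to be needed for normal ovulation.

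Of 9 granulosa and cumulus markers 6 fell at hCG-6h and 3 did not pass, with a median log2 change of -1.57, and their mean log2 level was 8.98 to 9.02 at hCG-6h and 10.64 to 10.75 at hCG-0h. Inha, the inhibin alpha subunit, stood at 13.36 to 13.42 at hCG-6h and at 13.41 to 13.49 at hCG-0h, whereas the follicle-stimulating hormone receptor gene Fshr stood at 8.15 to 8.34 at hCG-6h and at 11.41 to 11.52 at hCG-0h, and Slc38a3, an amino acid transporter gene, at 5.50 to 5.70 at hCG-6h and at 8.99 to 9.47 at hCG-0h. Of 12 oocyte markers 10 lay below 6.075, the limit of the dimmest 1 in 3 genes, and none of the 12 passed the test between the groups. Across all genes, 1969 rose and 1905 fell at hCG-6h (limma, adjusted p under 0.05).

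The core of the hypoxia response element is the 5-base word ACGTG or GCGTG, and it was looked for on both strands of the promoters of these genes, from 250 bases before to 50 bases after the start site annotated by RefSeq (build GRCm38.p6). Promoters were matched for 8 of the 10 genes (not for Epas1 and Ndrg1), with 2 start sites for Vegfa. The 4 genes of known promoter that rose or fell at hCG-6h are shown with Egln1, which passed in neither direction, so that the same word can be seen in genes that moved up, moved down and did neither. Each sequence is written 5′ to 3′ on the strand of its gene, and capitals mark the word or its reverse complement. The promoter of Ddit4 lies at chr10:59951721-59952020 (minus strand), that of Egln3 at chr12:54203825-54204124 (minus), that of Hif1a at chr12:73907617-73907916 (plus), that of Bnip3 at chr7:138909457-138909756 (minus) and that of Egln1 at chr8:124949205-124949504 (minus).
Ddit4: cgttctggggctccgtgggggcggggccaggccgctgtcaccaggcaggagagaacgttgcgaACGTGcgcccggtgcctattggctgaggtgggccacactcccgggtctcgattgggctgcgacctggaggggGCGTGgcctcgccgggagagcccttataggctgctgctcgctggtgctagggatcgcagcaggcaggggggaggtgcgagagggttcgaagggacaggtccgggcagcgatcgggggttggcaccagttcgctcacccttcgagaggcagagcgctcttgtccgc
Egln3: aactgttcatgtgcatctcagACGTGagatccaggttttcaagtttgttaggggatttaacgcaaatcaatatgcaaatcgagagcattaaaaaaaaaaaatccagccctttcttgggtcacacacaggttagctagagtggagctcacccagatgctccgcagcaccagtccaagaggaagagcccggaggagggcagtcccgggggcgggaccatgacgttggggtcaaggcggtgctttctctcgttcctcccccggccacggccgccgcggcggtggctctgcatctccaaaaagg
Hif1a: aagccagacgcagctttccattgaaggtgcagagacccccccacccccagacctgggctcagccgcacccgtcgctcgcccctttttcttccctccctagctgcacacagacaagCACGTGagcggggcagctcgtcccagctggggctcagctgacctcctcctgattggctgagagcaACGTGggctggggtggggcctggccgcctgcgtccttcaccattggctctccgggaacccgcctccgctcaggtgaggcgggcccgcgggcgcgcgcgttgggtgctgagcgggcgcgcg
Bnip3: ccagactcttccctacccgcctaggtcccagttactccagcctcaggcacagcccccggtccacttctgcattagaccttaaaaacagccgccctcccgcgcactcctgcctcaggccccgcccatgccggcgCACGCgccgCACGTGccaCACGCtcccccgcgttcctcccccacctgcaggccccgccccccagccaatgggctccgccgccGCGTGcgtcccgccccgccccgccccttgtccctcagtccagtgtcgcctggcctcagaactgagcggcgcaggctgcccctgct
Egln1: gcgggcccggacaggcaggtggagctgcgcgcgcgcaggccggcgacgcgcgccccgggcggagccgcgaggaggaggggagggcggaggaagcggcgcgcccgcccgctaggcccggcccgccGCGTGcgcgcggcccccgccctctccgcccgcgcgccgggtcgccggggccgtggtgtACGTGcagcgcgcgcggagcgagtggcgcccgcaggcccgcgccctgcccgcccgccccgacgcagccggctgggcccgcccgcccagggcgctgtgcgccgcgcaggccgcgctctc

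Ddit4 held the word at -187 and at -115, counted to its first base with -1 just before the start site, both on the strand of the gene. Bnip3 held 5 matches between -117 and -31, 2 of which overlap as the 2 strands of one palindrome. Hif1a had such a palindrome at -135 and a further match at -70, Egln3 had 1 match at -229, and Egln1 had matches at -126 and -68. At least 1 match was found in 8 of the 9 promoters, the exception being one of the start sites of Vegfa (chr17:46032328-46032627). Vegfa lies on the minus strand, so this exception is its upstream start. The matches of Vegfa lie by the downstream start, inside the gene. The word is common: 43.8% of 32851 annotated promoters held it, and 54.6% of the 18110 promoters whose gene is on the array. Both counts leave out 1 chromosome. A match is only a description of these letters, and it was present in genes that rose, in Bnip3, which fell, and in genes that did not pass.

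**Figure D1:**
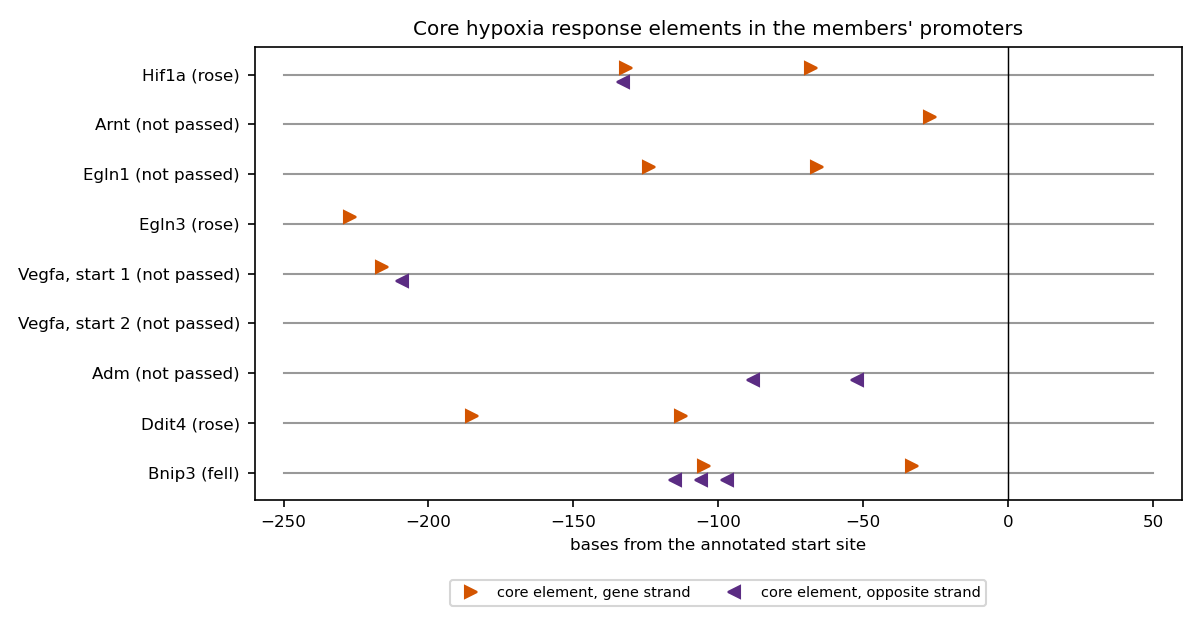
Each line is a promoter of 300 bases, with the distance from the annotated start site in bases on the x axis, and each triangle is a match to the core hypoxia response element on the strand of the gene (pointing right) or on the other strand (pointing left). Start 1 of Vegfa is the one with matches, at chr17:46025114-46025413, downstream of the other start on the minus strand. Bnip3, which fell, has 5 matches, more than any other promoter drawn.

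Of the 10 genes, 4 rose (Hif1a, Egln3, Ddit4 and Ndrg1), 2 fell (Epas1 and Bnip3) and 4 did not pass (Arnt, Egln1, Vegfa and Adm). Among all 18194 genes 10.8% rose, 10.5% fell and 21.3% passed in either direction. With the dimmest 1 in 3 genes left out, which held none of the 10, 1916 of 12132 genes rose and 1912 fell. The median log2 change of the 10 genes was 0.27 and the median of its size was 1.22, beside 0.0067 and 0.23 over all genes. Among the 5 HIF targets 2 rose, 1 fell and 2 did not pass. The 3 samples of one group did not overlap the 3 of the other in 6 of the 10 genes, and in 37.9% of all genes. Taken probe set by probe set, 11 of 26 rose, 3 fell and 12 did not pass, while 9.28% of all 34958 probe sets rose, 9.43% fell and 18.7% passed in either direction. No gene among the 10 had probe sets that passed in opposite directions. These are bulk samples, in which fewer cells of a type and less RNA per cell cannot be told apart.

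**Figure D2:**
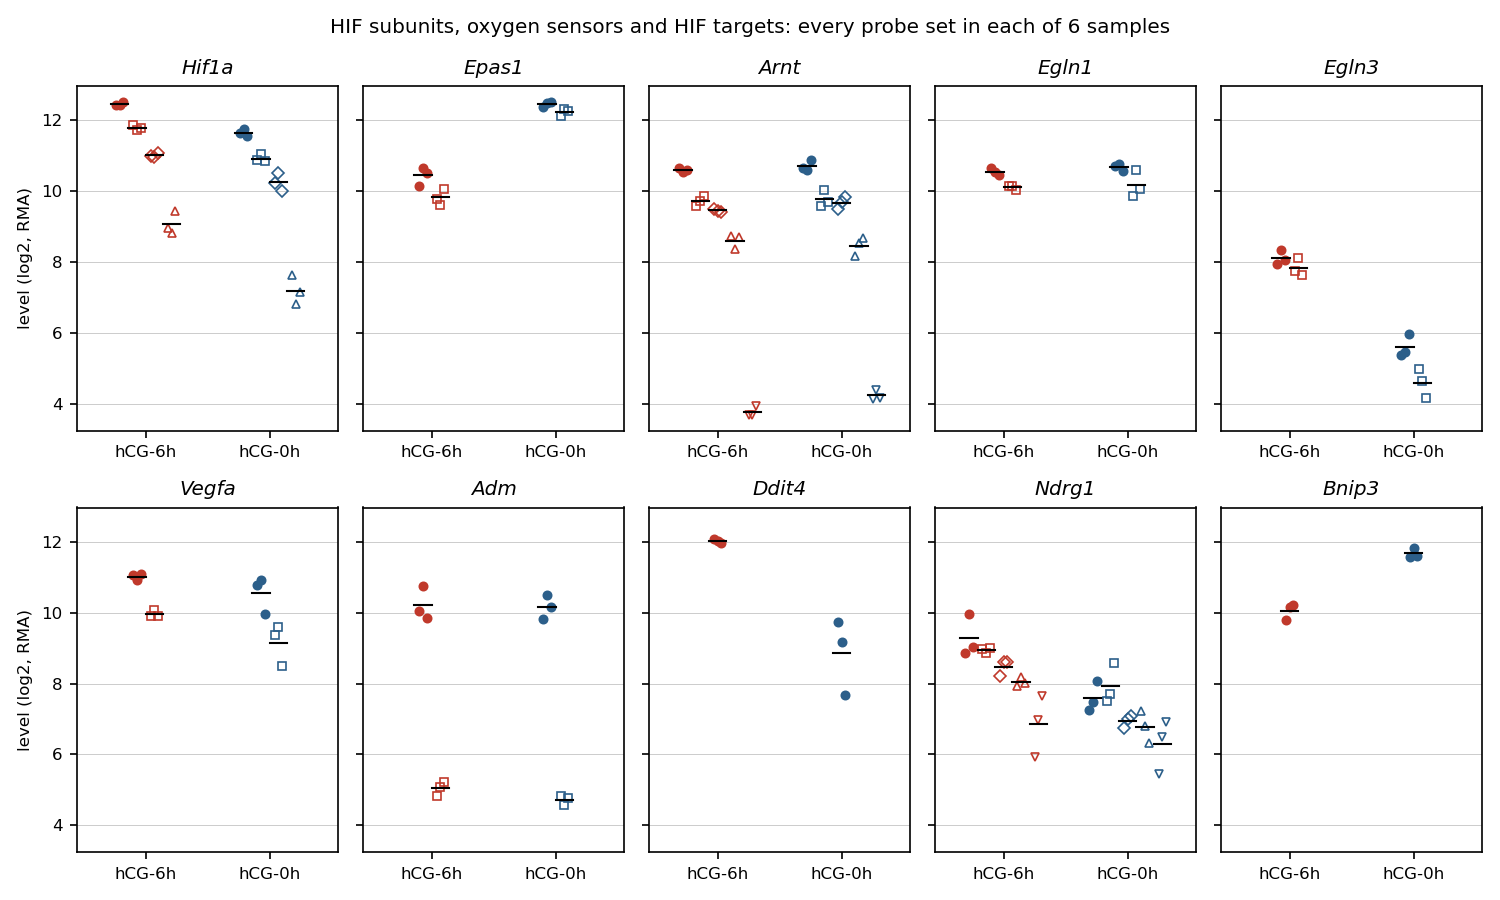
Points are the log2 levels of every probe set of the 10 genes in each of the 3 hCG-6h samples (red, left) and the 3 hCG-0h samples (blue, right), short lines are group means, and filled points mark the probe set that stands for the gene. Ddit4 lies between 11.97 and 12.07 in the hCG-6h samples and between 7.68 and 9.72 in the hCG-0h samples, whereas Epas1 and Bnip3 lie lower at hCG-6h in all samples.

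The alpha subunits moved in opposite directions. Hif1a had log2 levels of 12.44, 12.44 and 12.52 in hCG-6h samples 1 to 3, against 11.63, 11.74 and 11.55 in hCG-0h samples 1 to 3. The groups did not overlap, and the values within each lay close together. The rise was 1.77-fold (log2 change 0.83 ± 0.10, SE; limma, adjusted p = 0.00177). All 4 probe sets of Hif1a rose, with log2 changes of 0.76 to 0.86 for the 3 brighter ones and of 1.87 for the dimmest (1431981_at), whose levels were 8.95, 8.81 and 9.43 at hCG-6h and 7.63, 6.81 and 7.15 at hCG-0h. That probe set gave the largest change of the 4. For 1416035_at the call was lost without hCG-0h sample 1 or hCG-6h sample 1 or 3 (limma, adjusted p = 0.0517, 0.0503 and 0.0605).

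Epas1, which encodes HIF-2 alpha and is best known from endothelial cells, went the other way. Its levels were 10.15, 10.65 and 10.52 at hCG-6h, against 12.38, 12.47 and 12.51 at hCG-0h, so every hCG-6h sample lay well below every hCG-0h sample. The fall was 4.04-fold (log2 change -2.01 ± 0.15, SE; limma, adjusted p = 0.000214), and 2.89% of all genes had a change of larger size. Its other probe set (1449888_at) fell as well, with 9.79, 9.62 and 10.06 at hCG-6h, 12.13, 12.32 and 12.26 at hCG-0h, and a log2 change of -2.41. Of 7 endothelial markers 6 lay in the dimmest 1 in 3 genes, and none of the 7 passed. The mean log2 level of those markers was 5.42 to 5.59 at hCG-6h and 5.01 to 5.27 at hCG-0h. Whether RNA of endothelial cells had a part in the fall of Epas1 was not tested. The exception to their dimness was Cdh5, at 7.73, 7.92 and 8.63 at hCG-6h and at 6.12, 5.74 and 7.52 at hCG-0h (adjusted p = 0.053).

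Arnt, the shared partner, was measured by 5 probe sets, none of which passed. The brightest read 10.66, 10.55 and 10.59 at hCG-6h and 10.66, 10.58 and 10.87 at hCG-0h, and these overlap (log2 change -0.10, 95% interval -0.37 to 0.17; adjusted p = 0.596). The 4 brighter probe sets had changes of -0.22 to 0.14. The dimmest (1425064_at), at 3.69 to 3.95 at hCG-6h and 4.14 to 4.40 at hCG-0h, near the floor of the arrays, did not overlap between the groups and missed the threshold (log2 change -0.46, adjusted p = 0.057), but it passed with a variance trend and robust estimation and with weighted arrays (adjusted p = 0.033 and 0.0473).

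**Figure D3:**
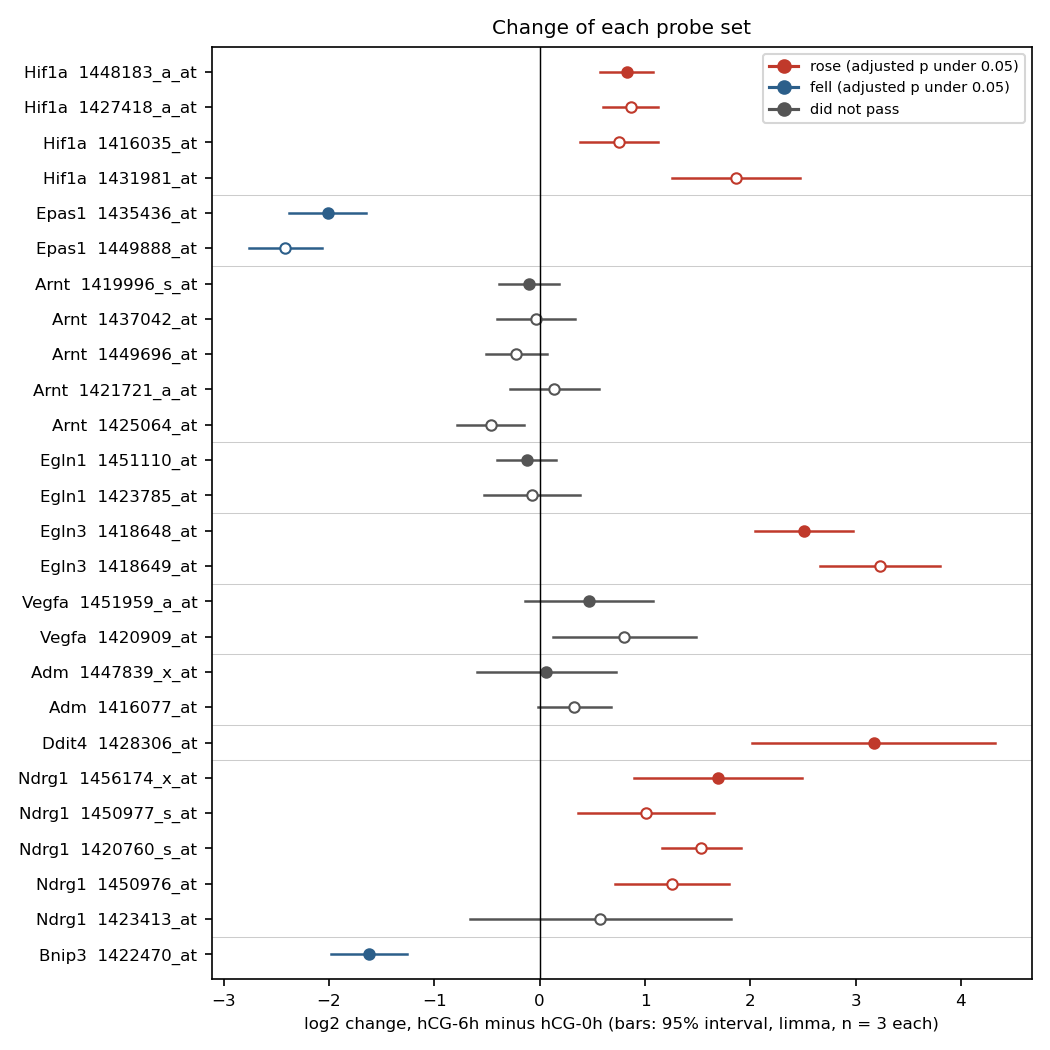
Each row is 1 of the 26 probe sets, with its log2 change (hCG-6h minus hCG-0h) on the x axis and a bar for the 95% interval from limma, and filled points mark the probe set that stands for the gene. The probe sets of Hif1a, Egln3 and Ddit4 lie to the right of 0 and those of Epas1 and Bnip3 to the left, while the bars of Egln1 and of the brighter Arnt probe sets span 0.

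The oxygen sensors also parted. Egln3, a prolyl hydroxylase that HIF itself induces in many cells, had levels of 7.95, 8.33 and 8.07 at hCG-6h, against 5.39, 5.45 and 5.98 at hCG-0h. The groups were far apart. The rise was 5.70-fold (log2 change 2.51 ± 0.19, SE; limma, adjusted p = 0.000236). The other probe set (1418649_at) rose too, with 7.75, 8.12 and 7.62 at hCG-6h, 4.98, 4.65 and 4.16 at hCG-0h, and a log2 change of 3.23. In the hCG-0h samples both probe sets lay among the dim ones, where background correction compresses folds, so the sizes are approximate.

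Egln1, the main oxygen sensor of most cells, stood at 10.66, 10.54 and 10.45 at hCG-6h and at 10.70, 10.76 and 10.56 at hCG-0h. The groups overlap, and the change did not pass (log2 change -0.12, 95% interval -0.39 to 0.14; adjusted p = 0.504). Its second probe set gave -0.07, with an interval of -0.53 to 0.39. The upper bound for the brighter probe set, 0.14, lies below the lower bound for Egln3, 2.06.

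Ddit4 had the largest rise of the 10 genes by the brightest probe set and with all 6 samples. It encodes REDD1, a stress-induced inhibitor of the growth-promoting kinase complex mTORC1, and responds to hypoxia as well as to other stresses and hormones. Its levels were 12.07, 12.03 and 11.97 in hCG-6h samples 1 to 3, and 9.72, 9.16 and 7.68 in hCG-0h samples 1 to 3. The hCG-6h samples were nearly equal, whereas the hCG-0h samples spread widely, with sample 3 far below the other two. The means were 12.02 ± 0.05 at hCG-6h and 8.85 ± 1.05 at hCG-0h (SD, n = 3 each), a 9.00-fold rise (log2 change 3.17 ± 0.48, SE; limma, adjusted p = 0.00437). By size of rise Ddit4 ranked 109 among 18194 genes. Without hCG-0h sample 3 the rise was 5.99-fold (log2 change 2.58, adjusted p = 0.000928), and the log2 change of Egln3 was then the larger, at 2.70. Only 1 probe set read this gene, so no second measurement was at hand.

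The low hCG-0h sample was also low for other genes that respond quickly to stimuli. Of 17 immediate early genes, which cells switch on within minutes of a signal, 15 were lowest among the hCG-0h samples in sample 3, while 33.5% of all 18194 genes were lowest in that sample. Their mean log2 level was 11.40 to 11.54 at hCG-6h, and 10.38, 10.43 and 9.45 in hCG-0h samples 1, 2 and 3. Of these 17 genes 10 rose at hCG-6h and 7 did not pass, and 12 rose when hCG-0h sample 3 was left out. The largest rises were those of Dusp1, Egr3, Ier3 and Ier2, with log2 changes of 3.00, 2.85, 2.62 and 2.20. What sets that sample apart was not tested.

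**Figure D4:**
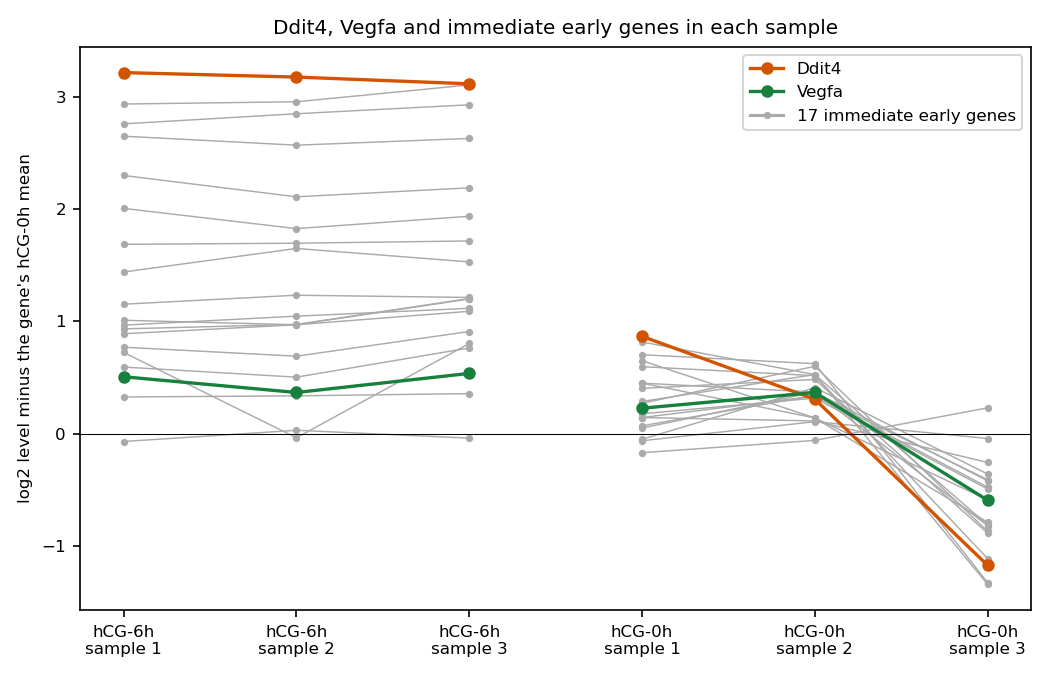
Lines give the log2 level of Ddit4, of Vegfa and of 17 immediate early genes in each sample, after subtraction of the mean of the 3 hCG-0h samples of that gene, with the hCG-6h samples on the left and the hCG-0h samples on the right. Ddit4 and Vegfa drop in hCG-0h sample 3 together with 15 of the 17 immediate early genes.

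The genes whose profile over the 6 samples was nearest to that of Ddit4, by the root mean square difference of log2 levels after subtraction of each gene's own mean, were Dusp1 (0.165), Trpc5 (0.280), Id1 (0.358), Bhlhe40 (0.400) and Kcnmb4 (0.408). Dusp1 encodes a phosphatase that switches off MAP kinases, Trpc5 a cation channel, Id1 an inhibitor of differentiation factors, Bhlhe40 a transcriptional repressor and Kcnmb4 a potassium channel subunit. Dusp1 stood at 11.52, 11.54 and 11.69 at hCG-6h and at 9.40, 9.11 and 7.24 at hCG-0h, again with sample 3 lowest. With 6 samples in 2 groups this likeness reflects the difference between groups and the low sample, and it is given as a description.

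Ddit4l, the paralog of Ddit4 and likewise known as an inhibitor of mTORC1, fell while Ddit4 rose. Its levels were 7.33, 7.63 and 7.76 at hCG-6h, against 10.71, 11.11 and 11.57 at hCG-0h. The groups were far apart, and the fall was 11.8-fold (log2 change -3.56 ± 0.23, SE; limma, adjusted p = 0.00014).

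Ndrg1, a stress-responsive protein linked to differentiation and lipid handling, was measured by 5 probe sets, of which 4 rose. The brightest (1456174_x_at) read 8.87, 9.95 and 9.04 at hCG-6h, against 7.25, 7.48 and 8.06 at hCG-0h. These groups did not overlap, although hCG-6h sample 2 stood above the other two. The rise was 3.23-fold (log2 change 1.69 ± 0.33, SE; limma, adjusted p = 0.0126). The ending of this probe set's name marks a set whose probes may also match other transcripts. In the fit over probe sets it missed the threshold without hCG-0h sample 1 or sample 2 (limma, adjusted p = 0.054 and 0.0528). The tightest probe set (1420760_s_at) read 8.22, 8.60 and 8.61 at hCG-6h and 6.74, 7.01 and 7.07 at hCG-0h, a log2 change of 1.54. The others that rose (1450977_s_at and 1450976_at) had log2 changes of 1.01 and 1.26. Of these, 1450977_s_at missed the threshold without hCG-0h sample 1 or 2 (limma, adjusted p = 0.108 and 0.127). It also missed it without any one of the hCG-6h samples (limma, adjusted p = 0.0961 to 0.115). With its probe sets averaged, Ndrg1 rose 2.32-fold (log2 change 1.21). The probe set that did not pass (1423413_at) read 5.94, 6.98 and 7.66 at hCG-6h and 5.46, 6.48 and 6.91 at hCG-0h, and its groups overlap. Of the relatives of Ndrg1, Ndrg4 rose (log2 change 1.06, adjusted p = 0.046), a call that held in 1 of 6 fits with a sample left out, while Ndrg2 and Ndrg3 did not pass (0.24 and -0.25).

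Bnip3, which marks mitochondria for removal by mitophagy and is induced by hypoxia in many other cells, fell. Its levels were 9.79, 10.15 and 10.20 at hCG-6h, against 11.57, 11.83 and 11.60 at hCG-0h. Every hCG-6h sample lay below every hCG-0h sample. The fall was 3.07-fold (log2 change -1.62 ± 0.15, SE; limma, adjusted p = 0.000501), and a single probe set read this gene.

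Vegfa, the main growth factor of blood vessels, did not pass. Its brighter probe set read 11.05, 10.91 and 11.08 at hCG-6h and 10.77, 10.91 and 9.95 at hCG-0h. The groups meet at 10.91, and hCG-0h sample 3 was again the lowest (log2 change 0.47, 95% interval -0.13 to 1.07; adjusted p = 0.253). Without that sample the change was 0.17 (adjusted p = 0.424). The second probe set (1420909_at) read 9.90, 10.06 and 9.90 at hCG-6h and 9.37, 9.60 and 8.48 at hCG-0h, which do not overlap, with a log2 change of 0.80 that missed the threshold (adjusted p = 0.104). A rise of up to 2.09-fold lies within the interval of the brighter probe set. For the second probe set the 95% interval, not adjusted for the number of probe sets, was 0.12 to 1.48. Without hCG-0h sample 3 its log2 change was 0.47 (limma, adjusted p = 0.0896).

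Adm, which encodes the vasodilator adrenomedullin, did not pass by either probe set. The brighter (1447839_x_at) read 10.05, 10.76 and 9.86 at hCG-6h and 9.82, 10.49 and 10.17 at hCG-0h, and the groups overlap (log2 change 0.06, 95% interval -0.59 to 0.71; adjusted p = 0.908). The other (1416077_at) was dim, at 4.83, 5.09 and 5.23 at hCG-6h and at 4.83, 4.57 and 4.76 at hCG-0h (log2 change 0.33, adjusted p = 0.178). The levels of the 2 probe sets cannot be set against each other, and the ending of the brighter one's name marks a set whose probes may also match other transcripts.

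Other genes of the pathway were taken from 5 lists (HIF subunits and co-activators, oxygen sensing and HIF breakdown, and 3 lists of targets), which held 44 further measured genes. Of these, 9 rose (20.5%), 7 fell (15.9%) and 28 did not pass, beside 10.8% and 10.5% of all genes that rose and fell. Those shares of all genes include the dim ones. In a fit without the genes below 6.075, 42 of the 44 were left, of which 9 rose and 9 fell. In that fit 1916 of 12132 genes rose and 1912 fell, larger shares than among all genes. With a variance trend and robust estimation, 10 of the 44 rose and 14 fell, beside 2158 and 2120 of all 18194 genes. The median log2 change of the 44 genes was -0.13. When the fit was repeated 6 times, each time without another sample, 10 of the 16 calls held every time.

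Among the partners and co-activators, Arnt2, a second beta subunit, fell (log2 change -2.40 ± 0.34, SE), with levels of 6.46, 5.42 and 6.29 at hCG-6h, against 8.02, 8.95 and 8.39 at hCG-0h. Cited2, which competes with HIF for its co-activators and is itself a HIF target, rose 2.02-fold, with 12.64, 12.65 and 12.63 at hCG-6h and 11.27, 11.85 and 11.75 at hCG-0h. Crebbp, a co-activator, fell by 0.36 on the log2 scale, and that call held in 0 of the 6 fits. Hif3a and Ep300 did not pass (-0.12 and 0.17). In the machinery that breaks HIF down, Cul2, the scaffold of the ligase built around Vhl, was the only further call of 7 genes (log2 change 0.56, held in 1 of 6 fits). Vhl and the sensors Egln2 and Hif1an did not pass, with log2 changes of 0.28, 0.18 and -0.27.

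Of 8 further targets in the list of secreted factors and matrix enzymes, 3 rose and 3 fell, beside 10.8% and 10.5% of all genes, dim ones included. That list also held Hmox1, which encodes a haem-degrading enzyme inside cells and did not pass. Lox, which cross-links collagen and elastin, rose 36.3-fold, with levels of 12.37, 12.36 and 12.33 at hCG-6h, against 6.92, 8.01 and 6.58 at hCG-0h (limma, adjusted p = 0.000148). Angptl4, an inhibitor of lipoprotein lipase, rose 5.98-fold, at 10.19, 10.41 and 10.28 at hCG-6h and 7.65, 7.82 and 7.67 at hCG-0h. In both genes the groups were far apart. P4ha1 and P4ha2, which hydroxylate collagen, went in opposite directions (0.67 and -1.03), each call holding in only 3 and 4 of the 6 fits. Pdgfb, a growth factor of vessel wall cells, fell (-1.54), and Edn1, the vasoconstrictor endothelin, fell by 1.27 on the log2 scale, a call that held in 1 of 6 fits.

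Of 17 targets in glucose use, acid export and lipid storage, 3 rose, 2 fell and 12 did not pass. Among all genes, dim ones included, 10.8% rose and 10.5% fell. Plin2, a coat protein of lipid droplets, rose 5.64-fold, the glucose transporter gene Slc2a1 1.58-fold and the hexokinase gene Hk2 1.62-fold, the last held in 3 of 6 fits. Pdk1, a classical HIF target whose product inhibits pyruvate dehydrogenase, fell by 1.21 on the log2 scale. Its levels were 9.21, 8.45 and 8.79 at hCG-6h and 10.09, 10.19 and 9.81 at hCG-0h. Pfkl, a phosphofructokinase, fell by 0.60. The glycolytic targets Ldha, Pgk1, Aldoa and Gapdh did not pass, with log2 changes of -0.14, -0.20, -0.11 and 0.02. In Ldha, Pgk1 and Aldoa every hCG-6h sample still lay below every hCG-0h sample. Groups that did not overlap, in either direction, were seen in 37.9% of all genes. Car9, a carbonic anhydrase often used as a marker of hypoxia, was near the floor of the arrays in all samples, at 4.23 to 4.74 at hCG-6h and 4.25 to 4.43 at hCG-0h. In the last list, of growth restraint, mitophagy and chromatin, Bhlhe40 rose 6.63-fold and the other 6 further genes did not pass, Higd1a, Ankrd37 and Kdm3a among them (-0.003, -0.14 and -0.55).

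**Figure D5:**
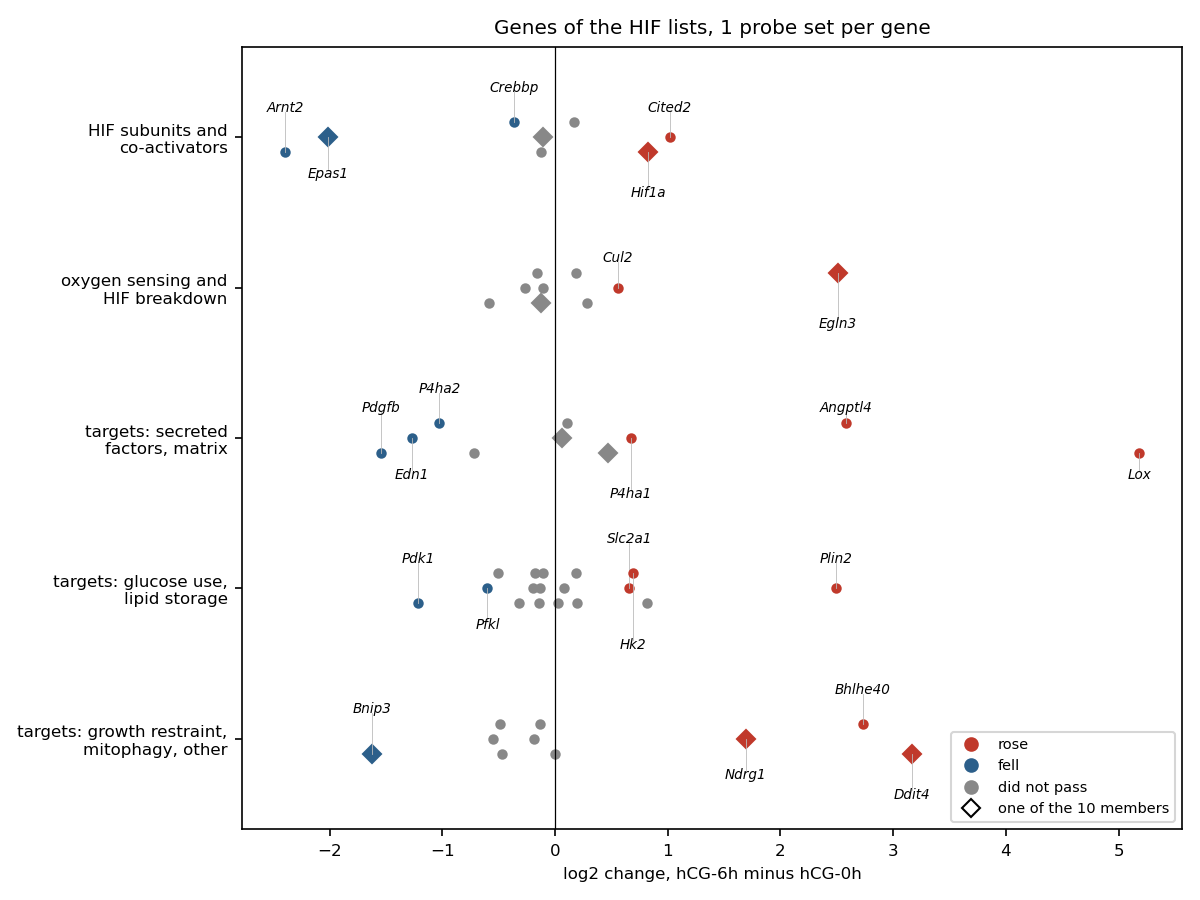
Each point is the log2 change (hCG-6h minus hCG-0h) of 1 gene of the 5 HIF lists, red where it rose, blue where it fell and grey where it did not pass, with diamonds for the 10 genes described above and names beside those that passed. Genes that rose and genes that fell stand side by side in 4 of the 5 lists, and Lox lies farthest to the right, at 5.18.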

How the data were processed

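RNA of 6 samples (3 hCG-6h, 3 hCG-0h) was amplified, labelled with biotin and hybridised to 1 array each, per the labels' protocols. The authors deposited log2 values with 2 decimals for 45101 probe sets, for which the submitters' processing notes list RMA, Affymetrix Expression Console 1.1 and GCOS. RMA corrects background, which compresses the folds of dim genes, and quantile-normalises the arrays. For the probe sets no genome build is used here.

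Only probe sets with 1 gene symbol in the platform annotation were used (34958, with 932 of several symbols and 9211 not listed left out), and the Entrez identifiers of 34754 matched the RefSeq gene table. The groups were compared across all 18194 genes, and across all 34958 probe sets, with limma 3.58.1 in R 4.3.3 (group as the only term, eBayes defaults, two-sided, Benjamini-Hochberg adjustment, threshold 0.05). Gene results use the fit over genes, and those of other probe sets the fit over probe sets. The fit was tested on simulated data. The number of arrays limits the precision. Settings tried besides are given at the end.

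The 10 genes and the lists were chosen with earlier results of these data known. The named genes are the 10, all others of the HIF lists that passed, up to 4 immediate early genes, and the 5 genes nearest to Ddit4; genes named beyond these were chosen after their values were seen.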

Additional observations from a re-analysis of the deposited data

How the results depend on the processing

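The 6 calls among the 10 genes were the same in direction and number with a variance trend and robust estimation, a second quantile normalisation, arrays centred on their medians, the dimmest 1 in 3 genes left out, weighted arrays, averaged probe sets, and each sample left out in turn (6 calls every time). With hCG-6h sample 1 alone, the only sample whose description gives 6 h, 1577 of all genes, 3 of the 10 genes, 6 of the 26 probe sets and 7 of the 44 other HIF genes passed. A single hCG-6h array leaves fewer degrees of freedom and is assumed to vary like the hCG-0h arrays. Hif1a, Ddit4 and Ndrg1 then missed the threshold (adjusted p = 0.0593, 0.0916 and 0.11) with log2 changes of 0.80, 3.22 and 1.27. Adm turned its sign with hCG-6h sample 1 alone (-0.11), without hCG-0h sample 1 (-0.11) and without hCG-6h sample 2 (-0.21), and passed in none of these, while its change lay between -0.21 and 0.245 over the fits without 1 sample. Leaving out 1 sample in turn gave 2920 to 3211 calls over all genes. It gave 11 to 14 of the 26 probe sets and 11 to 16 of the 44 other genes. With a variance trend and robust estimation together, the 44 reached 24 calls (10 rose and 14 fell), and all genes reached 4278. Across all settings 140 values of single genes were compared, of which 134 kept their direction and their side of the threshold.

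Same-numbered samples of the 2 groups did not deviate together over all probe sets (correlations of 0.04, -0.003 and 0.02). No pairing by number was seen, but a correlation that pools all probe sets cannot exclude it. With the number as a replicate block, 3264 genes, 6 of the 10 genes, 14 of the 26 probe sets and 13 of the 44 other genes passed. These 14 were not the same probe sets as in the main fit. For Ndrg1, 1450977_s_at then missed the threshold and 1423413_at rose (limma, adjusted p = 0.0536 and 0.0496).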
